A study of Mus musculus with 7 samples.

Results

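Collagens are the main structural proteins of the extracellular matrix, and each molecule is a rod wound from 3 polypeptide chains, which may be alike or encoded by different genes. Fibrillar collagens form the tensile fibrils of stroma and smooth muscle, type IV forms the sheet-like network of basement membranes, type VI forms beaded microfilaments around cells, and the FACIT chains (fibril-associated collagens with interrupted helices) sit on the surface of fibrils. In the uterus these proteins carry the endometrial stroma, the myometrium and the basement membranes under epithelium, endothelium and muscle. The genes described here are the 44 rows, of 31274 in the deposited RNA-seq table, whose mouse symbol has the form of Col, a number, a and a number. They comprised 11 fibrillar, 6 type IV, 6 type VI and 9 FACIT chains, 3 network-forming chains of types VIII and X, 2 multiplexins, 4 transmembrane chains and 3 others (Col7a1, Col26a1 and Col28a1).

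RNA was measured in uterine tissue of CD-1 mice, an outbred stock, at 2 months of age, with no exposure in either group. The estrus group held 3 libraries and the diestrus group held 4. Estrus follows the estradiol peak of the ovarian cycle, and diestrus is its progesterone-dominated phase. Values are FPKM, a level per length of transcript and per total of mapped fragments, so levels of different genes can be set side by side. A chain was tested when it reached at least 1 FPKM in at least 3 libraries, which 33 of the 44 chains and 13920 rows of the table did. The test was limma on log2(FPKM + 1) across all tested rows, with Benjamini-Hochberg adjusted p-values and a threshold of 0.05. Fold changes are given as log2(FPKM + 1) of estrus minus that of diestrus, and the added 1 shrinks the changes of low genes.

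Across the tested rows, 4336 genes, or 31.1%, passed the test. Of these 2393 (17.2%) were higher and 1943 (14.0%) lower in estrus. The balance moved with scaling: when FPKM were rescaled without rows named by GenBank accessions, microRNAs and small nucleolar RNAs, 1345 were higher and 2741 lower, and the median log2 fold change of all genes was -0.095, against 0.05 as deposited. Absolute depth was unknown, and the spacing of the lowest values put relative depth at 0.92 to 1.36 times that of estrus replicate 1. Along the main axis of variation (60.2% of the variance), estrus libraries lay between -59.9 and -47.0 and diestrus replicates 1 to 4 at 11.3, 36.3, 48.0 and 61.9, with replicate 1 the closest of them to estrus. The labels do not say that libraries are of different mice, and the p-values therefore rest on a spread between libraries that may be technical.

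Cell-type markers moved with the stage. Epithelial markers summed to 3135.0 to 3679.0 FPKM in estrus and 877.9 to 1181.6 FPKM in diestrus, and 8 of 10 passed higher. Endothelial markers summed to 160.2 to 202.4 FPKM in estrus and 273.6 to 646.8 FPKM in diestrus, with 9 of 10 lower. Pericyte markers (3 of 5 lower) summed to 52.9 to 73.4 and 99.2 to 153.8 FPKM in the same order, and macrophage markers (4 of 8 lower) to 140.6 to 218.5 and 166.9 to 416.3 FPKM. Stromal fibroblast markers summed to 1661.3 to 2412.7 FPKM in estrus and 2191.0 to 3912.5 FPKM in diestrus. Of these, 4 of 10 were lower (Thy1, Vim, Tcf21 and Hand2) and 6 did not pass. Dcn, among the 6, averaged 1102.8 ± 226.7 FPKM in estrus and 1314.6 ± 624.1 FPKM in diestrus (SD, n = 3 and 4). Smooth muscle markers overlapped, at 2975.1 to 5312.6 FPKM in estrus and 2660.9 to 6988.2 FPKM in diestrus, with 1 of 10 higher and 1 lower. Mesothelial markers, with 2 of 4 lower, summed to 41.5 to 64.2 and 86.5 to 173.4 FPKM, and of 4 Schwann cell markers 1 was tested and did not pass. No marker on these lists was at 0 in every library. In bulk tissue, fewer cells of a type and less RNA per cell cannot be told apart, and the part of these markers in the collagen results was not tested.

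Collagen chains moved in both directions between the stages. Of the 33 tested chains, 8 rose and 9 fell in estrus and 16 did not pass, or 24.2% and 27.3% in the 2 directions against the 17.2% and 14.0% of all tested genes. Their median log2 fold change was 0.07, against 0.05 over all tested genes. The rises were in fibrillar (Col5a1, Col5a3), type IV (Col4a3, Col4a4) and type VI (Col6a1, Col6a2, Col6a3, Col6a4) chains. The falls were Col4a6, Col11a1, the FACIT chains Col9a2, Col12a1, Col14a1 and Col20a1, the multiplexin Col18a1, the transmembrane Col23a1, and Col26a1. Of the 33 tested chains, the groups did not overlap at these 17, 8 with estrus higher and 9 lower, and overlapped at the other 16. Those are again 24.2% and 27.3% of the tested chains, against 21.9% and 18.7% of all tested genes (40.6% together). The 17 were picked by their p-values, so their separation is no further support. Col9a2 and Col20a1 were under 1 FPKM in every estrus library and entered the test through diestrus alone. They had to differ to be tested, their falls add no support, and 7 falls remain without them. Of these, Col23a1 and Col26a1 reached 1 FPKM in only 2 and 1 estrus libraries, and the risen Col4a3 in only 2 diestrus libraries. These chains met the filter only with libraries of the group in which they were higher, which limits their calls. Col4a3, Col4a4, Col4a6, Col6a3, Col12a1 and Col14a1 passed in every alternative in which they were tested, while the other 11 were lost in at least 1, all 11 of them without estrus replicate 2.

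**Figure D1:**
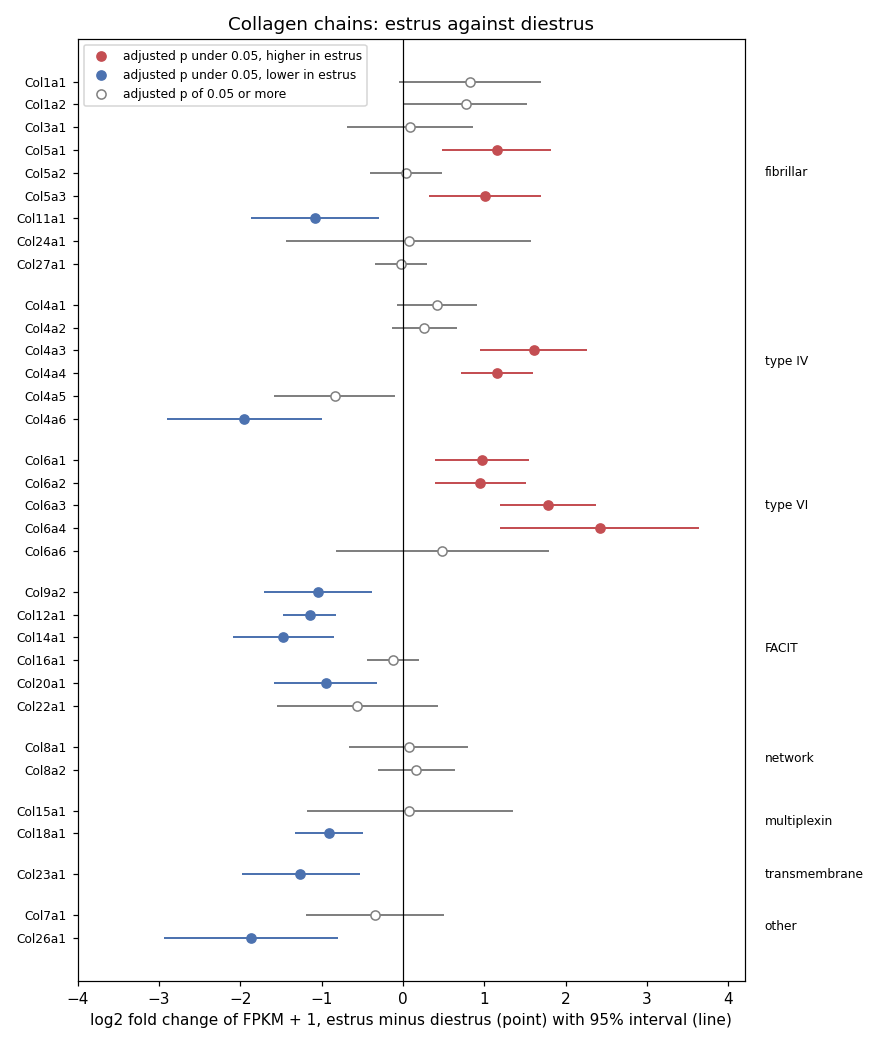
Fold changes of the 33 tested chains between estrus and diestrus, with the log2 change of FPKM + 1 on the horizontal axis, 1 row per chain and classes named at the right; points are limma estimates, lines their 95% intervals, and filled points passed at an adjusted p under 0.05. The filled type VI points lie at 0.95 to 2.42, and the FACIT points of Col12a1 and Col14a1 lie at -1.14 and -1.47.

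Summed over all 44 chains, collagen transcripts stood at 5397.0, 6472.5 and 7324.5 FPKM in estrus, against 5437.9, 2663.1, 4247.0 and 4112.2 FPKM in diestrus. Total FPKM also differed, at 677344 to 731457 in estrus and 471379 to 583079 in diestrus. As a share of that total, collagen transcripts overlapped between the groups, at 0.797%, 0.885% and 1.02% in estrus and 0.933%, 0.565%, 0.896% and 0.852% in diestrus. With rows named by GenBank accessions left out of the total, the shares were 1.26% to 1.64% in estrus and 0.719% to 1.49% in diestrus. These shares overlapped only at diestrus replicate 1 (1.49%), and the other diestrus libraries lay below every estrus library. The difference in these shares was not tested. Fibrillar chains made up 48.9%, 48.4% and 46.8% of the summed collagen FPKM in estrus and 55.9%, 44.7%, 54.5% and 57.2% in diestrus. Type VI chains made up 41.9%, 42.6% and 44.6% in estrus, above the 32.8%, 37.9%, 26.4% and 26.3% of diestrus. FACIT chains were a small share, at 1.32%, 1.08% and 1.01% in estrus, below the 2.43%, 3.25%, 2.72% and 2.63% of diestrus. Type IV chains took 5.2% to 5.69% in estrus and 4.70% to 8.68% in diestrus, where the lowest value was again that of replicate 1.

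**Figure D2:**
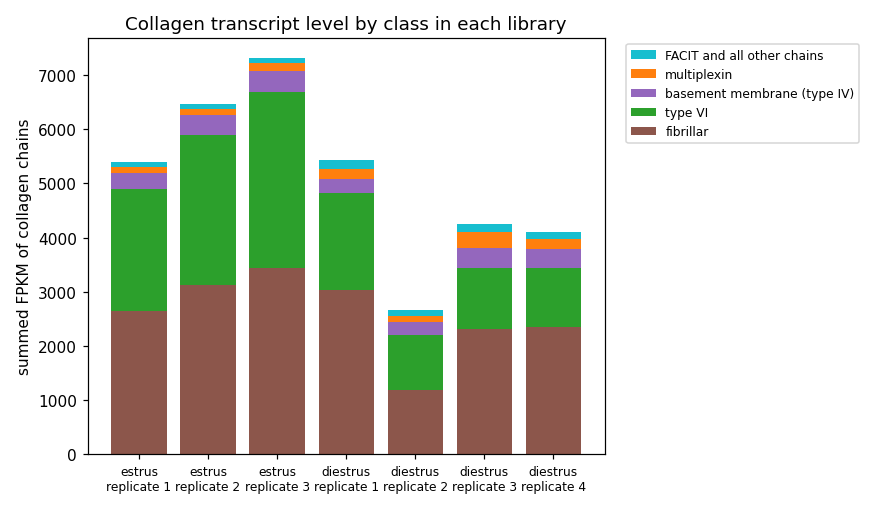
Summed FPKM of the collagen chains in each library, stacked by class, with estrus libraries at the left and diestrus libraries at the right. Type VI sums are 2262.1 to 3268.1 FPKM in estrus and 1009.6 to 1782.1 FPKM in diestrus, and fibrillar sums overlap, at 2640.5 to 3430.9 FPKM in estrus and 1190.4 to 3040.5 FPKM in diestrus.

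Type IV chains, the 6 genes of basement membrane collagen, lie in the mouse genome as 3 pairs read in opposite directions from neighbouring starts, and the pairs differed between stages. Col4a1 and Col4a2, which form the common network of nearly all basement membranes, did not pass, Col4a3 and Col4a4 rose, and Col4a6 fell, and the median log2 fold change of the class was 0.34. By the GENCODE M21 annotation of GRCm38, the Col4a1 and Col4a2 genes (chromosome 8) overlap by 22 bases at their starts, which lie 21 bases apart. Those of Col4a4 and Col4a3 (chromosome 1, 82448423 to 82586849 and 82586921 to 82722059) have 71 bases between them, and those of Col4a6 and Col4a5 (chromosome X, 141165403 to 141474076 and 141475385 to 141689234) have 1308. Sequences upstream of the Col4a4, Col4a6 and Col4a5 starts are shown, because the genes of a pair start from neighbouring DNA. They are from RefSeq's GRCm38.p6 promoter table, 5′ to 3′ on the named gene's strand, with capitals for the CCAAT match described further on. The Col4a4 stretch lies between both starts of its pair, and the Col4a6 and Col4a5 stretches are separate parts of the DNA between theirs. All are shorter than the 250-base windows counted further on, so matches counted there can lie outside them.
Col4a4 (the stretch between the Col4a4 and Col4a3 starts, chr1:82586850-82586920, minus strand): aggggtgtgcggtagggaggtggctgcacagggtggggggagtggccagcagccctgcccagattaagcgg
Col4a6 (chrX:141474096-141474326, minus strand): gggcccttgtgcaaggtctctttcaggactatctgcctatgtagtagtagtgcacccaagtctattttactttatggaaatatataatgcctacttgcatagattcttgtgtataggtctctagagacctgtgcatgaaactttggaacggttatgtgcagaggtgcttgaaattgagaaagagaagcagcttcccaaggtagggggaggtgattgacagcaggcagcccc
Col4a5 (chrX:141475169-141475369, plus strand): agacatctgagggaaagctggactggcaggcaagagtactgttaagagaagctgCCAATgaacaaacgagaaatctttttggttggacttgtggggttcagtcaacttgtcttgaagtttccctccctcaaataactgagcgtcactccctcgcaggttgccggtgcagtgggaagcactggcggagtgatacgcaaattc
The Col4a4 to Col4a3 stretch was 69.0% G and C, against 45.5% for Col4a6 and 49.8% for Col4a5. RefSeq also lists a longer Col4a4 extent that covers this stretch.

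Col4a3, a chain of the basement membranes of kidney glomerulus and other specialised epithelia, stood at 3.49, 7.26 and 6.95 FPKM in estrus, against 0.934, 0.71, 1.95 and 1.35 FPKM in diestrus. Its fold change was 1.61 (SE 0.28, limma adjusted p = 0.00623). Col4a4, its partner in the same molecule, stood at 3.74, 5.93 and 5.87 FPKM in estrus, against 1.67, 1.33, 2.11 and 1.90 FPKM in diestrus (log2 1.15, SE 0.19, limma adjusted p = 0.00503). For both genes every estrus library was above every diestrus library, and estrus replicate 1 was the lowest of its group. Col4a3 reached 1 FPKM in 2 diestrus libraries, so it met the filter only with the help of estrus libraries. The gene C430014B12Rik on the opposite strand shares 5.65% of the annotated exon bases of Col4a3, and the counting was not stated to use strand. Col4a6 moved the other way, at 2.11, 5.01 and 6.94 FPKM in estrus, against 14.0, 12.9, 31.1 and 25.2 FPKM in diestrus, a fold change of -1.95 (SE 0.40, limma adjusted p = 0.0119). Its neighbour and partner Col4a5 stood at 10.5, 16.5 and 20.8 FPKM in estrus and 27.1, 17.6, 41.5 and 32.2 FPKM in diestrus. Here the groups overlapped at diestrus replicate 2, and the fold change of -0.84 (95% interval -1.57 to -0.11) had a limma adjusted p of 0.0757, which was 0.0335 without that library and 0.0318 with the rescaling.

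The common chains were far more abundant. Col4a1 (chromosome 8, 11198423 to 11312826) stood at 155.7, 194.6 and 202.5 FPKM in estrus and 120.7, 104.3, 161.4 and 171.7 FPKM in diestrus. Col4a2 (chromosome 8, 11312805 to 11449287) stood at 112.2, 138.8 and 138.0 FPKM in estrus and 91.4, 94.5, 125.5 and 122.5 FPKM in diestrus. Their groups overlapped, and fold changes of 0.42 (95% interval -0.06 to 0.90) and 0.26 (-0.12 to 0.65) had limma adjusted p values of 0.156 and 0.249. Relative to Col4a1, the Col4a3 level was 0.0224 to 0.0373 in estrus and 0.00681 to 0.0121 in diestrus, and the Col4a6 level was 0.0135 to 0.0343 in estrus and 0.116 to 0.193 in diestrus. The Col4a6 level relative to Col4a5 was 0.200 to 0.334 in estrus and 0.515 to 0.783 in diestrus. These 3 ratios were chosen after the values had been seen and were not tested. Of the cell types whose markers were summed, epithelium was higher in estrus, as Col4a3 and Col4a4 were. Endothelial, pericyte, mesothelial, macrophage and stromal fibroblast markers were lower in part, as Col4a6 was. Smooth muscle marker sums overlapped, with 1 of 10 genes higher and 1 lower. The part of any of these cell types in the type IV results was not tested.

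**Figure D3:**
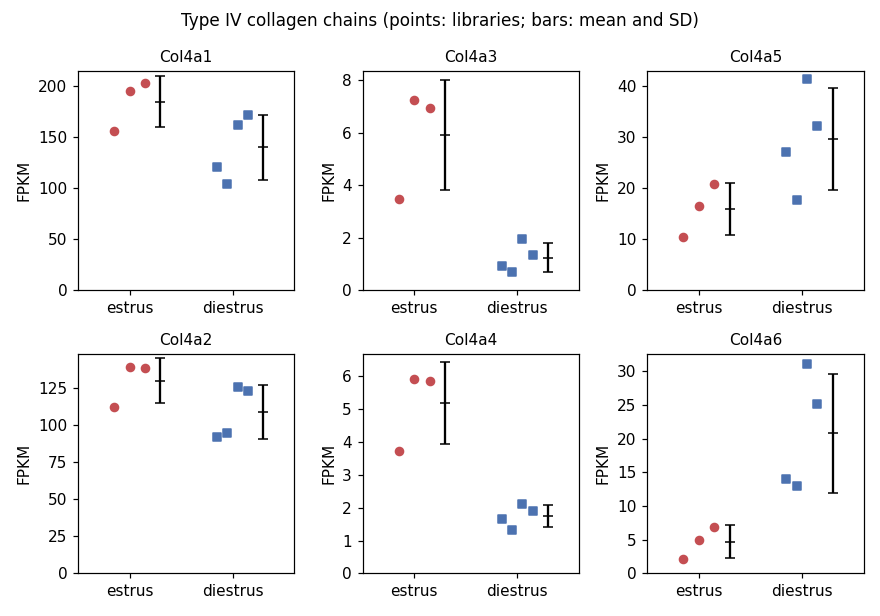
FPKM of the 6 type IV chains, with each gene pair in a column, estrus libraries at the left and diestrus libraries at the right of each panel, and bars for mean and SD (n = 3 and 4); axes start at 0 and differ between panels. Col4a3 and Col4a4 do not overlap and are higher in estrus, Col4a6 does not overlap and is lower, and the other 3 chains overlap.

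Type VI chains, which form microfilaments that link cells to the surrounding matrix, had the highest class median. Of 5 tested, 4 rose and none fell, where 17.2% of all tested genes rose and 14.0% fell. The median log2 fold change was 0.97, against 0.05 over all tested genes. Col6a1 stood at 847.8, 1010.3 and 1211.8 FPKM in estrus, against 717.4, 427.8, 477.6 and 482.5 FPKM in diestrus. Col6a2 stood at 877.3, 1036.3 and 1158.9 FPKM in estrus, against 714.6, 426.2, 525.0 and 473.7 FPKM in diestrus. These chains, which lie on the same strand of chromosome 10 and are required in every type VI molecule, were near equal in every library. Their fold changes were 0.97 (SE 0.24) and 0.95 (SE 0.23), with limma adjusted p values of 0.0223 and 0.0209. For both, diestrus replicate 1 was the diestrus library nearest to estrus. Epithelial markers were higher in estrus at 8 of 10 genes and stromal fibroblast markers lower at 4 of 10. Their part in the type VI rises was not tested.

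Col6a3, the long chain that completes the common type VI molecule (chromosome 1, 90765923 to 90843971), stood at 235.4, 323.6 and 332.9 FPKM in estrus, against 130.1, 78.5, 75.5 and 67.3 FPKM in diestrus. The fold change was 1.78 (SE 0.25, limma adjusted p = 0.00326). The DNA upstream of its start is shown as that of the type VI chain with the smallest p-value.
Col6a3 (chr1:90844002-90844221, minus strand): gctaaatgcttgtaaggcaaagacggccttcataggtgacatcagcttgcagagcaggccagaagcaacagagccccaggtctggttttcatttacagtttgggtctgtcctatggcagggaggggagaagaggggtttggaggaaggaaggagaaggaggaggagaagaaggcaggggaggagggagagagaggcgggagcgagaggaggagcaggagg
The Col6a3 level relative to Col6a1 was 0.278, 0.320 and 0.275 in estrus, against 0.181, 0.184, 0.158 and 0.139 in diestrus. Every estrus library was above every diestrus library, and the exact two-sided permutation p was 0.0286, the smallest that 3 and 4 libraries allow, or 0.114 adjusted over the 12 ratios tested. The ratio of Col6a2 to Col6a1 was 1.01 ± 0.0429 in estrus and 1.02 ± 0.0544 in diestrus (SD, n = 3 and 4), with an exact permutation p of 0.771.

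Col6a4, a chain of the mouse that lies beside Col6a5 and Col6a6 on chromosome 9 (105989454 to 106096783), also rose. It stood at 292.2, 376.9 and 553.1 FPKM in estrus, against 196.1, 70.3, 38.3 and 52.9 FPKM in diestrus (log2 2.42, SE 0.52, limma adjusted p = 0.0138). All estrus libraries were above all diestrus libraries, and diestrus replicate 1 stood apart from the other 3. Col6a6, its neighbour, stood at 8.47, 10.6 and 10.5 FPKM in estrus and at 22.5, 5.93, 2.58 and 5.10 FPKM in diestrus, where replicate 1 was above every other library of the series. Its fold change of 0.48 (95% interval -0.81 to 1.78) had a limma adjusted p of 0.526, which became 0.0242, with a fold change of 1.02, without diestrus replicate 1. Col6a5 stayed below the filter, at 0.863 to 0.920 FPKM in estrus and 0.605 to 1.40 FPKM in diestrus. Without estrus replicate 2 the limma adjusted p values of Col6a1, Col6a2 and Col6a4 were 0.0865, 0.0860 and 0.0550, without estrus replicate 3 those of Col6a1 and Col6a2 were 0.0623 and 0.0585, leaving out diestrus replicate 4 gave 0.0582 and 0.0566, and without diestrus replicate 3 that of Col6a1 was 0.0549. With quantile normalization Col6a1 and Col6a2 were at 0.0595 and 0.0567, and without a filter on low values at 0.0675 and 0.0667.

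The abundant fibrillar chains Col1a1, Col1a2 and Col3a1, with levels like those of Col6a1 and Col6a2, did not pass the test. Of 9 tested, 2 rose and 1 fell, near the 17.2% and 14.0% of all tested genes, with a median log2 fold change of 0.09. Col1a1, the main chain of type I collagen (chromosome 11, 94936224 to 94953042), stood at 851.7, 1109.8 and 1227.0 FPKM in estrus and 902.3, 309.7, 610.6 and 729.6 FPKM in diestrus. Col1a2, the other type I chain (chromosome 6, 4504814 to 4541544), stood at 769.8, 946.9 and 1050.8 FPKM in estrus and 798.0, 321.3, 514.5 and 624.9 FPKM in diestrus. For both, diestrus replicate 1 lay above estrus replicate 1 and the other diestrus libraries lay below every estrus library. Their fold changes of 0.82 (95% interval -0.04 to 1.68) and 0.77 (0.03 to 1.51) had limma adjusted p values of 0.126 and 0.101, and that of Col1a2 was 0.0391 without diestrus replicate 1. The Col1a1 level relative to Col1a2 was 1.15 ± 0.0366 in estrus and 1.11 ± 0.102 in diestrus (SD, n = 3 and 4), with overlapping groups. The Col6a1 level relative to Col1a1 also overlapped, at 0.964 ± 0.047 in estrus and 0.905 ± 0.323 in diestrus (SD, n = 3 and 4). Its exact permutation p was 0.686, so a difference between the changes of Col6a1 and Col1a1 was not shown.

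Col3a1, the chain of type III collagen, which is abundant in distensible tissue (chromosome 1, 45311538 to 45349706), stood at 836.6, 858.1 and 944.1 FPKM in estrus and 1171.6, 463.4, 1023.8 and 842.3 FPKM in diestrus. Its fold change was 0.09 (95% interval -0.68 to 0.85, limma adjusted p = 0.858). Set against Col1a1, however, Col3a1 was lower in every estrus library, at 0.982, 0.773 and 0.769 of the Col1a1 level, than in any diestrus library, at 1.3, 1.5, 1.68 and 1.15. That ratio had an exact permutation p of 0.0286, the smallest the design allows, and 0.114 adjusted over the 12 ratios. Col14a1 set against Col1a1 also separated the groups, at 0.0166, 0.0102 and 0.00785 in estrus, against 0.0538, 0.0698, 0.0623 and 0.0450 in diestrus, with the same exact permutation p of 0.0286 and 0.114 adjusted.

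**Figure D4:**
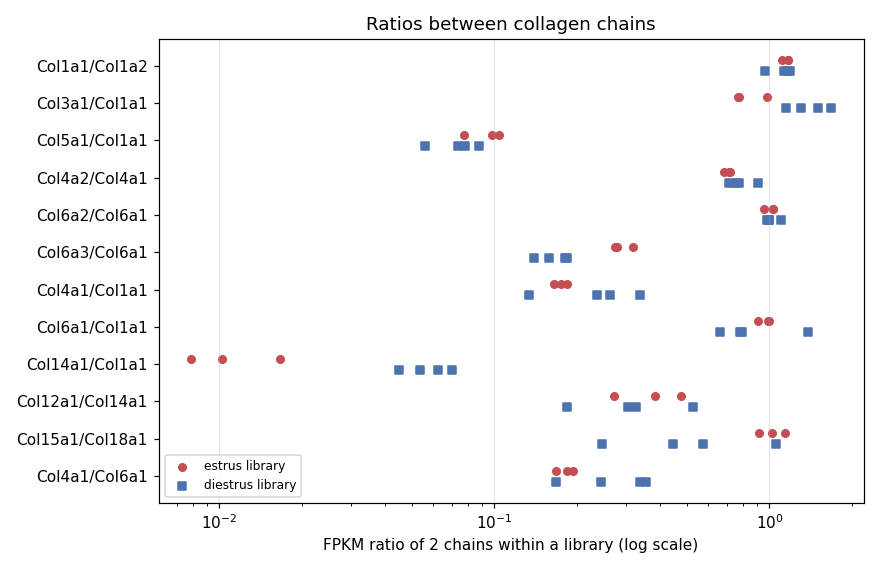
Ratio of the FPKM of 2 chains within each library, on a log axis, for the 12 ratios tested, with estrus libraries drawn above diestrus libraries in each row. Col3a1/Col1a1, Col6a3/Col6a1 and Col14a1/Col1a1 do not overlap between groups, and the other 9 do.

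The minor fibrillar chains divided. Col5a1, the type V chain needed to start fibrils, stood at 88.3, 108.7 and 95.2 FPKM in estrus, against 70.3, 27.1, 45.0 and 40.7 FPKM in diestrus (log2 1.15, SE 0.28, limma adjusted p = 0.0218). Col5a3, a rarer type V chain, stood at 12.1, 19.2 and 17 FPKM in estrus, against 9.60, 3.96, 9.10 and 8.25 FPKM in diestrus (log2 1.01, SE 0.29, limma adjusted p = 0.0356). Both groups were separate for both chains, with diestrus replicate 1 the diestrus library nearest to estrus. Col5a2, the partner of Col5a1 in most type V molecules, averaged 79.8 ± 7.68 FPKM in estrus and 78.7 ± 15.8 FPKM in diestrus (SD, n = 3 and 4), with a fold change of 0.04 (95% interval -0.39 to 0.47). Col11a1, a type XI chain best known from cartilage, stood at 2.14, 1.36 and 1.25 FPKM in estrus, against 4.04, 2.32, 8.52 and 4.38 FPKM in diestrus (log2 -1.08, SE 0.33, limma adjusted p = 0.0432). Col24a1 and Col27a1 averaged 2.72 and 5.04 FPKM in estrus and 3.72 and 5.15 FPKM in diestrus and did not pass. In diestrus Col24a1 ranged from 0.407 to 8.21 FPKM, with replicates 1 and 2 below and replicates 3 and 4 above every estrus library.

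These 3 calls were close to the threshold. Col5a1 had limma adjusted p values of 0.0521, 0.0909 and 0.0514 without estrus replicates 1, 2 and 3, 0.0545 without diestrus replicate 4 and 0.0541 with quantile normalization. Col5a3 had 0.135 and 0.0844 without estrus replicates 2 and 3, 0.0501 and 0.0664 without diestrus replicates 3 and 4, 0.0528 with quantile normalization and 0.0615 without a filter on low values. Col11a1 had 0.0696, 0.139 and 0.104 without estrus replicates 1 to 3 and 0.0576, 0.0528 and 0.0888 without diestrus replicates 1, 3 and 4, and was above 0.05 too with a pseudocount of 5, without the filter and with quantile normalization (0.0626, 0.0769 and 0.0794).

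**Figure D5:**
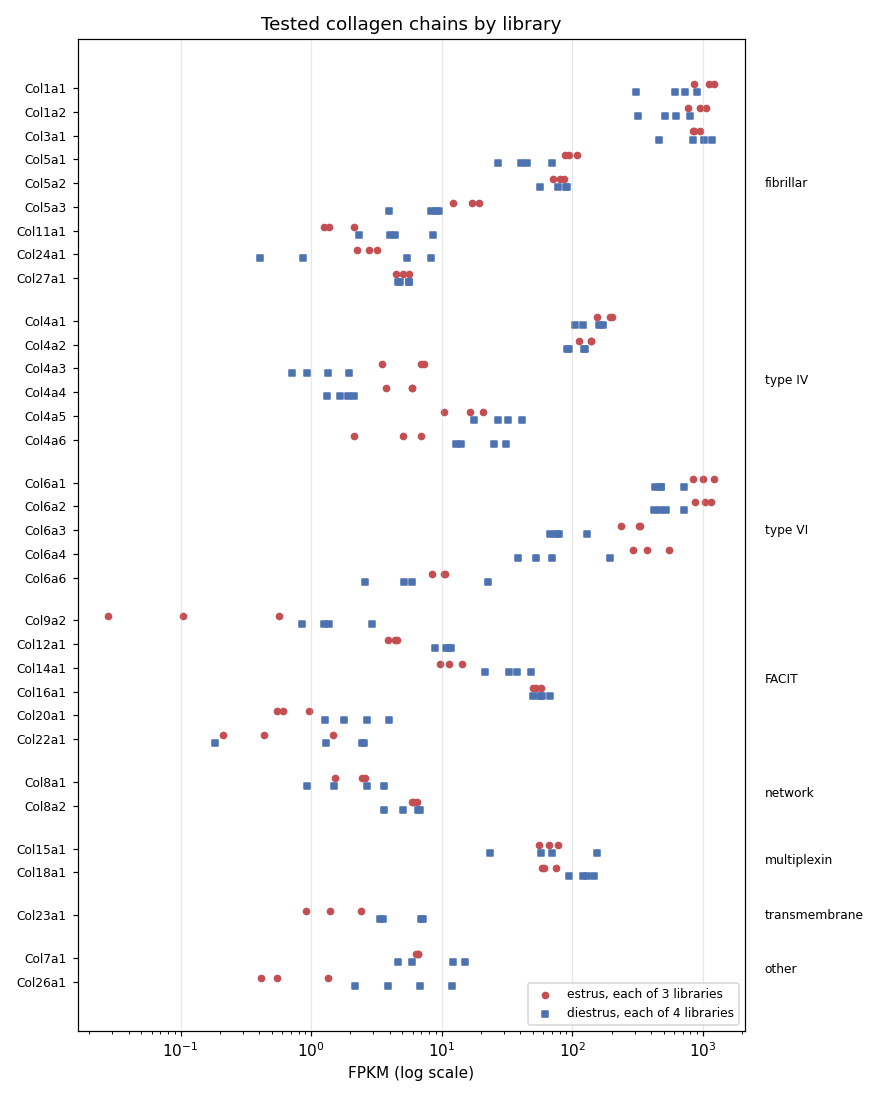
FPKM of each tested chain on a log axis, 1 row per chain with estrus libraries (circles) drawn above diestrus libraries (squares) and classes named at the right. Col1a1, Col1a2, Col3a1, Col6a1 and Col6a2 lie at the high end, between 309.7 and 1227.0 FPKM, and the FACIT chains other than Col16a1 lie under 50 FPKM.

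Of the 4 tested FACIT chains that reached 1 FPKM in libraries of both stages, 2 fell in estrus and none rose, with a median log2 fold change of -0.85, where 14.0% of all tested genes fell. The other 2 of the 6 tested, Col9a2 and Col20a1, had to differ to be tested and are described apart. Col12a1, a fibril-surface chain of tissues under tension (chromosome 9, 79598991 to 79718831), stood at 3.86, 4.35 and 4.58 FPKM in estrus, against 8.87, 11.4, 11.7 and 10.8 FPKM in diestrus. It had the smallest p-value of all collagen chains, with a fold change of -1.14 (SE 0.13, limma adjusted p = 0.00207). Col14a1, its close relative, which regulates fibril growth (chromosome 15, 55307750 to 55520803), stood at 14.2, 11.4 and 9.63 FPKM in estrus, against 48.5, 21.6, 38.0 and 32.9 FPKM in diestrus (log2 -1.47, SE 0.26, limma adjusted p = 0.00721). Both chains were lower in every estrus library than in any diestrus library. Their ratio, Col12a1 over Col14a1, was 0.377 ± 0.101 in estrus and 0.336 ± 0.142 in diestrus (SD, n = 3 and 4), with an exact permutation p of 0.629. Of 10 stromal fibroblast markers, 4 were also lower in estrus and 6 did not pass. The smallest p-value among them was that of Thy1, at 34.5 ± 4.32 FPKM in estrus and 95.4 ± 12.8 FPKM in diestrus. Endothelial (9 of 10), pericyte (3 of 5), mesothelial (2 of 4) and macrophage (4 of 8) markers were lower as well. Epithelial markers were higher at 8 of 10, and smooth muscle had 1 of 10 higher and 1 lower. The part of any of these cell types in the Col12a1 and Col14a1 falls was not tested.

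Col16a1, a FACIT chain of smooth muscle and many other tissues (chromosome 4, 130047840 to 130099283), was the most abundant of its class and differed little. It stood at 49.7, 52.8 and 57.9 FPKM in estrus and 67.8, 49.8, 57.1 and 59.0 FPKM in diestrus, with a fold change of -0.12 (95% interval -0.43 to 0.19, limma adjusted p = 0.509). Col9a2 and Col20a1 were tested only because they reached 1 FPKM in diestrus, so their values are a description. Col9a2, a chain of cartilage type IX collagen, stood at 0.570, 0.105 and 0.0277 FPKM in estrus, against 2.93, 1.25, 1.36 and 0.854 FPKM in diestrus (limma adjusted p = 0.0285). Col20a1 stood at 0.607, 0.544 and 0.956 FPKM in estrus, against 1.28, 1.80, 3.92 and 2.68 FPKM in diestrus (limma adjusted p = 0.0320). A chain at such levels could pass the filter only by being higher in diestrus, and neither the separation of the groups nor the adjusted p is read as a result. Col9a2 was at 0.110 and 0.0784 without estrus replicates 2 and 3, 0.0503 with quantile normalization and 0.0509 with a pseudocount of 5. Col20a1 was at 0.0912, 0.120 and 0.0509 without estrus replicates 1 to 3, 0.0779 without diestrus replicate 4, 0.0648 with quantile normalization and 0.0526 without a filter. Col22a1, a chain of tissue junctions in muscle, stood at 0.213 to 1.46 FPKM in estrus and 0.184 to 2.53 FPKM in diestrus and did not pass.

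In the remaining classes, 1 of 2 tested multiplexins, the 1 tested transmembrane chain and 1 of 2 tested others fell. None rose, and neither of the 2 tested network-forming chains passed. Of all tested genes 17.2% rose and 14.0% fell, and classes of 1 or 2 tested chains are too small to compare with those shares. Col18a1, the basement membrane multiplexin whose end fragment is endostatin (chromosome 10, 77052178 to 77166548), stood at 60.5, 58.3 and 75.4 FPKM in estrus, against 129.3, 95.2, 146.4 and 121.2 FPKM in diestrus (log2 -0.91, SE 0.17, limma adjusted p = 0.00901). The groups did not overlap, and the adjusted p was 0.0525 without estrus replicate 2. Its relative Col15a1 stood at 55.5, 66.3 and 77.1 FPKM in estrus and 57.4, 23.4, 155.7 and 69.6 FPKM in diestrus, a spread within diestrus that spanned all estrus values (log2 0.08, 95% interval -1.17 to 1.34). Endothelial (9 of 10), pericyte (3 of 5) and mesothelial (2 of 4) markers were also lower in estrus. So were macrophage (4 of 8) and stromal fibroblast (4 of 10) markers. Epithelial markers were higher (8 of 10), and smooth muscle marker sums overlapped, with 1 of 10 higher and 1 lower. The part of any of these in the Col18a1 result was not tested.

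Col23a1, a transmembrane chain, stood at 2.42, 1.39 and 0.916 FPKM in estrus, against 3.34, 3.56, 6.90 and 7.17 FPKM in diestrus (log2 -1.26, SE 0.31, limma adjusted p = 0.0209). Col26a1, a short secreted chain first found in developing testis and ovary of mice (chromosome 5, 136741759 to 136883209), stood at 1.35, 0.552 and 0.413 FPKM in estrus, against 12.0, 6.79, 3.89 and 2.18 FPKM in diestrus (log2 -1.87, SE 0.46, limma adjusted p = 0.0210). Both chains were lower in every estrus library, and Col26a1 ranged widely within diestrus. Col23a1 and Col26a1 reached 1 FPKM in 2 and 1 estrus libraries, so they met the filter only with the help of diestrus libraries. Without estrus replicates 2 and 3 the adjusted p was 0.0822 and 0.0604 for Col23a1 and 0.0832 and 0.0595 for Col26a1, and it was 0.0505 for Col23a1 without diestrus replicate 4. Col7a1, which forms the anchoring fibrils under stratified epithelium, stood at 6.57, 6.35 and 6.58 FPKM in estrus and 15.1, 4.64, 12.2 and 5.91 FPKM in diestrus and did not pass (adjusted p = 0.480). Neither did the network-forming Col8a1 and Col8a2, which are chains of vessel and corneal matrix, at 1.53 to 2.59 and 5.91 to 6.47 FPKM in estrus and 0.925 to 3.61 and 3.62 to 6.78 FPKM in diestrus.

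In the list for chain synthesis, modification and folding, 3 of 20 tested genes rose and 3 fell, with a median log2 fold change of -0.06. These shares are near the 17.2% and 14.0% of all tested genes, so the genes below are given one by one and not as a result about the list. Plod2, the lysyl hydroxylase of collagen telopeptides, stood at 52.9, 60.9 and 56.7 FPKM in estrus, against 29.7, 17.7, 23.0 and 27.3 FPKM in diestrus (log2 1.21, SE 0.18, limma adjusted p = 0.00395). P4ha3 and P4ha2, catalytic subunits of prolyl 4-hydroxylase, moved apart, with fold changes of 1.66 and -0.66 (limma adjusted p = 0.0249 and 0.0282). Crtap, a subunit of the prolyl 3-hydroxylase complex, averaged 34.3 ± 3.27 FPKM in estrus and 54.5 ± 5.93 FPKM in diestrus (SD, n = 3 and 4, limma adjusted p = 0.00974). The collagen chaperone Serpinh1 averaged 343.8 FPKM in estrus and 378.0 FPKM in diestrus and did not pass (adjusted p = 0.712). Without estrus replicate 2 the adjusted p values of P4ha3, P4ha2 and Crtap were 0.0844, 0.112 and 0.0597. Without estrus replicate 3 those of P4ha3 and P4ha2 were 0.0712 and 0.0743, and without diestrus replicate 3 that of P4ha2 was 0.0654.

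In the list for export, propeptide removal and crosslinking, 4 of 16 tested genes rose and 1 fell, with a median of 0.30, where 17.2% of all tested genes rose and 14.0% fell. Lox, the lysyl oxidase that starts crosslinks, stood at 65.9, 85.0 and 109.4 FPKM in estrus, against 15.2, 24.4, 34.0 and 57.7 FPKM in diestrus (log2 1.5, SE 0.41, limma adjusted p = 0.0293). Loxl2, an oxidase that also acts on type IV collagen, stood at 22.3, 27.0 and 22.5 FPKM in estrus, against 13.8, 13.0, 6.85 and 7.48 FPKM in diestrus (log2 1.20, SE 0.25, limma adjusted p = 0.0126). Adamts2, which removes the amino-terminal propeptide of fibrillar procollagens, averaged 51.3 ± 11.2 FPKM in estrus and 25.8 ± 3.14 FPKM in diestrus (SD, n = 3 and 4, limma adjusted p = 0.00774). Bmp1, which removes the carboxy-terminal propeptide, moved the other way, at 30.1 ± 2.07 FPKM in estrus and 40.3 ± 1.00 FPKM in diestrus (SD, n = 3 and 4, limma adjusted p = 0.0193). Lox, Loxl2 and Adamts2 were higher in every estrus library, and Bmp1 lower. Of the other oxidases on the list, which were looked up after the values were seen, Loxl3 was lower in every estrus library, at 5.01 ± 0.855 FPKM in estrus and 6.84 ± 0.476 FPKM in diestrus (SD, n = 3 and 4), but did not pass (limma adjusted p = 0.0669). Loxl1 overlapped, at 27.2 FPKM in estrus and 39.9 FPKM in diestrus, and Loxl4 was not tested. The adjusted p of Lox was 0.0524, 0.0966 and 0.0803 without estrus replicates 1 to 3, 0.0647 and 0.0516 without diestrus replicates 2 and 3, 0.0544 with quantile normalization and 0.0530 without a filter. Loxl2 was at 0.0629 without estrus replicate 2. Bmp1 was at 0.06 and 0.104 without estrus replicates 1 and 2, and just over the threshold without diestrus replicate 4.

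Among 7 tested collagen receptors, 1 rose and none fell, with a median of -0.04, and the share that rose is near the 17.2% of all tested genes (14.0% fell). Itga2, the alpha chain of an epithelial and platelet integrin that binds collagen, stood at 8.87, 18.0 and 17.2 FPKM in estrus, against 1.82, 2.59, 1.92 and 1.80 FPKM in diestrus (log2 2.32, SE 0.25, limma adjusted p = 0.00150). Epithelial markers were higher in estrus at 8 of 10 genes, and their part in the Itga2 rise was not tested. Itgb1, its beta partner, did not overlap between the groups at 253.4 ± 19.9 FPKM in estrus and 202.4 ± 16.3 FPKM in diestrus (SD, n = 3 and 4) but did not pass (limma adjusted p = 0.101). The integrin chain Itga1 and the receptor kinase Ddr1 did not pass, at 9.74 and 54.5 FPKM in estrus and 15 and 47.4 FPKM in diestrus. Among 6 tested genes of collagen breakdown and uptake, none rose and 1 fell, with a median of -0.38, and the share that fell is near the 14.0% of all tested genes (17.2% rose). That gene was Mmp2, the gelatinase A of stroma, at 83.4, 77.0 and 111.0 FPKM in estrus, against 206.5, 271.1, 299.0 and 314.6 FPKM in diestrus (log2 -1.58, SE 0.20, limma adjusted p = 0.00244). Its activator Mmp14, the gelatinase Mmp9 and the uptake receptor Mrc2 averaged 140.5, 2.79 and 21.3 FPKM in estrus and 220.4, 6.27 and 25.8 FPKM in diestrus, with overlapping groups, and did not pass.

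Letters upstream of the collagen genes were compared with those of all genes in RefSeq's GRCm38.p6 promoter table, over the 250 bases before each start and on both strands. The table held 35 of the 44 chains, among them 7 of the 8 that rose and 6 of the 9 that fell. The GC box GGGCGG stood in 60.0% of the 35 chains and in 35.4% of all 27025 genes, where a gene with several windows counts once if any holds the motif. It stood upstream of 4 of the chains that rose and 5 of those that fell. CCAAT stood in 37.1% of the chains and 37.5% of all genes, and TATAAA in 14.3% of both. The palindromic estrogen response element was in none of the 35 chains and in 0.0666% of all genes, and the element shared by the progesterone and glucocorticoid receptors in none and in 0.44%. Each motif was counted by itself, whether or not its letters overlapped those of another, and a match is a description of these windows.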

How the data were processed

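RNA of whole mouse uterus was purified on RNeasy columns with DNase treatment and made into Illumina TruSeq libraries, per the labels' protocols. The authors deposited FPKM, with 1 column per library. The submitters' processing notes name TopHat2 2.0.4 and mm10 without their roles; how FPKM was computed is not given in the sources used here. Each column was tied to its sample by the description label (0 left over), and titles gave the groups.

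FPKM are not counts, so rows with at least 1 FPKM in at least 3 libraries were log2 transformed after adding 1 and compared by limma 3.58.1 (R 4.3.3) with trended moderation. Two-sided p-values were Benjamini-Hochberg adjusted over all 13920 of them. Ratios of 2 chains were tested by an exact two-sided permutation test with all 35 assignments. Members and lists were chosen with earlier results of these data known. Values are given for the 3 highest and the 3 smallest-p chains of a class, all chains that passed, and the 4 smallest-p genes of each pathway list. Thy1, Dcn, Serpinh1, Loxl1, Loxl3, Loxl4, Col5a2, Col24a1, Col27a1, Col22a1 and Col6a5 were added after values were seen. The fit and the permutation test were tested on simulated data. Alternatives were other pseudocounts, filters, scalings and moderation, a fit blocked on replicate number, and omission of each library in turn. Python 3.11.15 and matplotlib 3.10.9 drew the figures.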

Additional observations from a re-analysis of the deposited data

Results flagged for a closer look

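Col6a6 in diestrus replicate 1 stood at 22.5 FPKM, far from the other 3 diestrus libraries at 5.93, 2.58 and 5.10 FPKM, with estrus libraries at 8.47 to 10.6 FPKM. Of the 33 tested chains examined for a single distant diestrus library, this was the 1 that was marked, and chance marks about 1 group in 20. The same library was the highest diestrus library for Col6a1, Col6a2, Col6a3, Col6a4, Col1a1, Col1a2, Col5a1 and Col5a3. It was also the highest for Col9a2, Col14a1 and Col26a1, which were lower in estrus, and there it lay farthest from estrus. Col3a1, Col7a1 and Col16a1, which did not pass, were highest in it too. The groups of 3 estrus libraries were not examined in this way.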

How the results depend on the processing

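No called chain changed sign in any alternative. Among the 16 chains that did not pass, 6 with fold changes near 0 (Col3a1, Col5a2, Col8a1, Col15a1, Col24a1 and Col27a1) changed sign in some. Leaving out single libraries gave 3 to 10 chains higher and 3 to 9 lower in estrus, with 3 and 3 without estrus replicate 2, 4 and 4 without estrus replicate 3, and 4 and 6 without diestrus replicate 4. Over all genes these fits gave 854 to 2866 higher and 579 to 2445 lower, lowest without estrus replicate 2. These fits have fewer samples, and the cause of the differences between them was not tested. Quantile normalization called 4 chains higher and 6 lower, and a mean of at least 5 FPKM tested fewer rows, with 4 chains and 1181 genes lower. The rescaling without accession, microRNA and small nucleolar rows called 1345 genes higher. With a replicate block, 3 chains rose and 6 fell, and 1299 genes rose and 982 fell. The labels do not say that numbers pair samples, and deviations from group means of same-numbered samples correlated at 0.198, 0.024 and 0.169, with estrus replicates 2 and 3 closest to diestrus replicates 1 and 4, so the block has no basis in the design. Fits without 1 library gave the ratios no p-value, and the log2 difference of Col3a1/Col1a1 then ranged from -0.85 to -0.65, that of Col6a3/Col6a1 from 0.74 to 0.87, that of Col14a1/Col1a1 from -2.67 to -2.13 and that of Col15a1/Col18a1 from 0.66 to 1.36. Depth in reads was unknown, which limits chains under 1 FPKM.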

Other observations

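The chains below the filter ranged from 0 FPKM to the 1.4 FPKM of Col6a5 in diestrus replicate 1. Col10a1, the chain of hypertrophic cartilage, stood at 0.118, 0.432 and 0.288 FPKM in estrus and at 0.0384, 0.00549, 0.0210 and 0 FPKM in diestrus, so the groups did not overlap. Col25a1, a transmembrane chain of neurons, stood at 0.0615 to 0.0906 FPKM in estrus and 0.107 to 0.201 FPKM in diestrus, again without overlap. Col9a3, Col11a2, Col13a1, Col17a1 and Col28a1 averaged 0.600, 0.553, 0.421, 0.439 and 0.232 FPKM in estrus and 0.616, 0.703, 0.712, 0.367 and 0.610 FPKM in diestrus, with overlapping groups. The cartilage chain Col2a1 and Col19a1 stayed under 0.05 FPKM in every library. Col9a1 was listed at 0 in all estrus libraries and at 0, 0, 0.00714 and 0.0183 FPKM in diestrus.

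Genes annotated on the opposite strand in GENCODE M21 share exon bases with other chains that rose. For Col6a4, Gm36993 and Gm47575 share 1.49% and 1.90% of the exon bases, and for Col5a1, 2810430I11Rik and Gm13372 share 1.17% and 1.33%. Without a stated use of strand, reads of these bases cannot be assigned to 1 gene.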
